A study of Homo sapiens with 10 samples.

Results

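The nuclear receptor genes are 42 of the 20098 protein-coding genes that GENCODE places on chromosomes 1 to 22 and X, chosen by name, with each name matching 1 gene. They do not make up the whole family, and its other members are not analysed here. The cells were MDAMB231, an established human triple-negative breast cancer cell line, grown without treatment in medium with fetal bovine serum. The 10 samples were 2 each of H3K4me1, H3K4me3 and H3K27Ac ChIP-seq with 1 ChIP input, and 2 of FAIRE-seq, which recovers nucleosome-depleted DNA, with 1 FAIRE input. Each assay is represented by 1 list of peaks made by the authors from its combined samples, so the values carry no replicate error and every count is a description of 1 cell line.

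Nuclear receptors are transcription factors with a zinc-finger DNA-binding domain and, in most members, a pocket that binds a small lipophilic ligand such as a steroid, thyroid hormone, retinoic acid, vitamin D, a fatty acid or an oxysterol. Steroid receptors bind DNA mainly as homodimers, many other members bind as heterodimers with a retinoid X receptor, and orphan receptors have no established natural ligand. H3K4me3 marks promoters, H3K4me1 marks enhancers and promoter flanks, and H3K27Ac marks active promoters and enhancers.

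A promoter was any annotated start site widened by 1 kb, and a peak counted when it shared at least 1 base with it. The histone peaks carry a score, minus 10 times the log10 of the p-value against input, whose most frequent value in the H3K4me3 list is 3100, so scores near it do not rank peaks. A FAIRE peak carries a height.

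The promoters of markers of the line were counted by the same rule. By it, 67.3% of all protein-coding genes had H3K4me3, 63.5% H3K27Ac, 39.3% FAIRE and 20.0% H3K4me1, and 29.3% had no list. All 6 mesenchymal markers (VIM, CD44, CAV1, AXL, ZEB1 and FOSL1) had H3K4me3, H3K27Ac and FAIRE peaks. None of the 3 blood markers had a peak of any list at a promoter, and of 4 myoepithelial or basal markers only TP63 had any. Its scores were 203 for H3K4me3, 315 for H3K27Ac and 195 for H3K4me1, without FAIRE. Of 8 luminal genes, 7 had H3K4me3, 7 had H3K27Ac and 5 had FAIRE, and CDH1, which encodes E-cadherin, had H3K27Ac of 538 and FAIRE of 31.7 without H3K4me3.

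Promoter sequences of the members that the results turn on are shown first, with 250 bases before and 50 after the start site on GRCh37, read 5′ to 3′ on the strand of the gene. Capitals mark AGGTCA, the core word bound by many receptors, on either strand, or a direct repeat built from AGGTCA or from the related word AGTTCA or the word GGTTCA or the word GGGTCA, with the bases between. The related words were added after the data were seen and with the known retinoic acid element of the RARB promoter in view, so its match follows from the choice of words. The promoters shown were also chosen after their peaks and matches were seen. RARB and ESRRA are shown for a repeat, PPARG for its start sites of different marking, ESR2 for a marked promoter and RXRG for an unmarked one.
RARB canonical start, chr3:25469504-25469803, plus strand: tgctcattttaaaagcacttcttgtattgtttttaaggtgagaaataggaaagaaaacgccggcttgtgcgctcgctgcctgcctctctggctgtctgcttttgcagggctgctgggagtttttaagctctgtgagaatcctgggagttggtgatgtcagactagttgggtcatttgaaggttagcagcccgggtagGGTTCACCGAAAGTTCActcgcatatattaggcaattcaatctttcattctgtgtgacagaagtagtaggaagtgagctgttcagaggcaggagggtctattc
PPARG canonical start, chr3:12330319-12330618, plus strand: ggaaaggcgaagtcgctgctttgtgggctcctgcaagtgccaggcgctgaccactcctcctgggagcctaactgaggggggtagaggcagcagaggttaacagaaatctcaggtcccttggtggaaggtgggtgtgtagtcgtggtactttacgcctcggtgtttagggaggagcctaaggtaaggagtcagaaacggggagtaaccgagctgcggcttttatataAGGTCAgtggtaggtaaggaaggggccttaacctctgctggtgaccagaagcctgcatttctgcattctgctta
PPARG internal start, chr3:12446557-12446856, plus strand: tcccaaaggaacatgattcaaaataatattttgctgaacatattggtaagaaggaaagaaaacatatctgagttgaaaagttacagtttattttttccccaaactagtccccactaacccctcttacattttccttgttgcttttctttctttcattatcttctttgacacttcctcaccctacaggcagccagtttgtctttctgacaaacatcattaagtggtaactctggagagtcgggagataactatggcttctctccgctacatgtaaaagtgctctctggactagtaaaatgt
ESR2 canonical start, chr14:64761040-64761339, minus strand: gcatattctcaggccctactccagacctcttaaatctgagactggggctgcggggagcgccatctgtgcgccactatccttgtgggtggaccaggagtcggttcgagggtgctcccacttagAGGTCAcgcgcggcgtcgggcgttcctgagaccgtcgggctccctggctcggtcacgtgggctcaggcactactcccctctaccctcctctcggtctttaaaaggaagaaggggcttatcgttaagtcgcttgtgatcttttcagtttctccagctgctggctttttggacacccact
RXRG canonical start, chr1:165414314-165414613, minus strand: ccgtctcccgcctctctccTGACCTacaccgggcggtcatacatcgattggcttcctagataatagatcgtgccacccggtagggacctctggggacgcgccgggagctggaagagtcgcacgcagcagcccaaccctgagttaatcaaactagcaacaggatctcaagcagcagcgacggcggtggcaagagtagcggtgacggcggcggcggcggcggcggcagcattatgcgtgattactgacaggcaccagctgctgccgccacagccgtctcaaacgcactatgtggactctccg
ESRRA alternative start, chr11:64073449-64073748, plus strand: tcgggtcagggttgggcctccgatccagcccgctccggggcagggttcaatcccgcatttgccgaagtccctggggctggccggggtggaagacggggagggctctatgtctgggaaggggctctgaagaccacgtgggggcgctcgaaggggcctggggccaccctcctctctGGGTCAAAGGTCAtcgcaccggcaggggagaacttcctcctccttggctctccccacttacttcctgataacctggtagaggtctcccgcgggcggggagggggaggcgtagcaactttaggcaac

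H3K4me3 peaks lay at a promoter of 34 of 42 receptor genes, against 67.3% of all protein-coding genes. H3K27Ac was present at 32, against 63.5%. FAIRE was present at 21, against 39.3%, and H3K4me1 at 8 (19.0%), against 20.0%, an order that was turned with stricter peaks, 16.7% against 11.2%. The receptor genes had a median of 8 start sites and all genes 5, so more promoter sequence was searched for the members. Set beside genes of similar start site number, FAIRE was at 7 of 15 members against 60.4% (11 or more start sites), 5 of 11 against 47.0% (6 to 10), 7 of 12 against 34.8% (3 to 5) and 2 of 4 against 18.3% (1 to 2), so the higher share was not seen in the members with more start sites. For H3K27Ac, in the same order, it was 13 of 15 against 87.4%, 7 of 11 against 76.5%, 8 of 12 against 60.6% and 4 of 4 against 33.0%. The higher H3K27Ac share was thus also not seen with 6 or more start sites. For H3K4me3 it was 14 of 15 against 90.7%, 8 of 11 against 80.3%, 8 of 12 against 65.5% and 4 of 4 against 36.5%. With the outermost start site only, H3K4me3 was at 61.9% of members and 61.7% of all genes. At the Ensembl canonical start site alone, a choice made after the data were seen, 73.8% of members and 64.4% of all genes had H3K4me3, and for FAIRE the order was turned, with 28.6% of members and 31.4% of all genes.

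**Figure D1:**
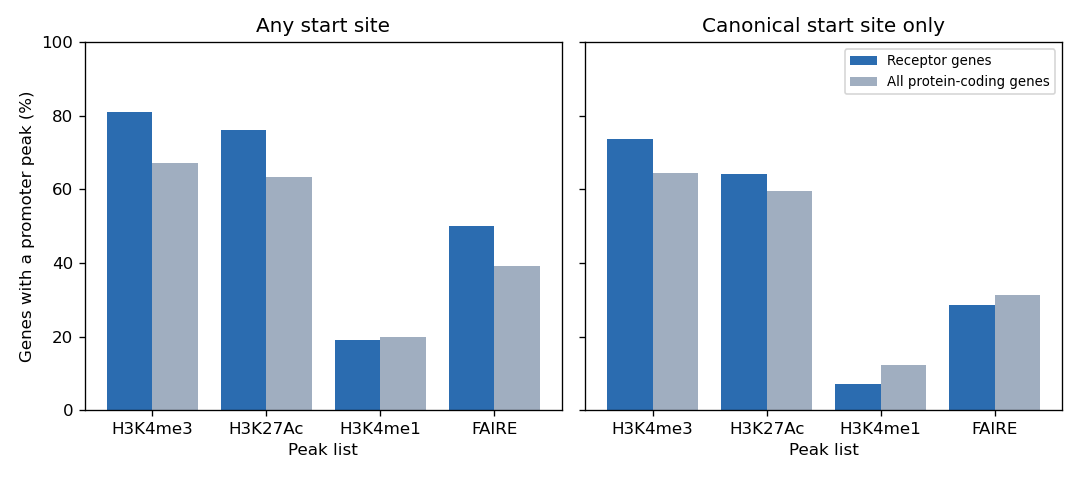
Share of genes (%) with a promoter peak of each list, for the 42 receptor genes and all 20098 protein-coding genes, at any start site (left) and at the canonical start site (right). For FAIRE the members were above all genes on the left, with 21 of 42 genes against 39.3%, and below them on the right, at 28.6% against 31.4%.

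Counted over all start sites of a gene, 4 members (9.52%), RARB, PPARG, NR1D2 and NR1H3, had all 4 lists, against 13.1% of all genes, though not always at the same start site. The order was turned with stricter peaks (9.52% against 5.49%) and with the peak centre in the promoter (7.14% against 5.24%). With protein-coding transcripts only, 2 members were left, against 10.1%. With the outermost or the canonical start only, 0 members were left, against 6.06% and 6.51%. Over all start sites and all peaks, the most common combination was H3K4me3 with H3K27Ac and FAIRE, in 16 members (38.1%), against 23.5% of all genes. With stricter peaks it was left in 10 members (23.8%), against 17.2%, as RXRA, NR2C1, NR2C2, ESRRA, NR4A2 and NR4A3 lost FAIRE. H3K4me3 with H3K27Ac only was then the most common, in 15 members (35.7%), against 33.0%. At the canonical start alone each of these combinations was in 12 members (28.6%). Of all genes, 24.1% there had the combination without FAIRE and 23.2% the one with FAIRE. Over all start sites and all peaks again, H3K4me3 and H3K27Ac without FAIRE were found at 11 members, against 24.7% of all genes, among them NR3C1, THRB and RORA. No list reached a promoter of 7 members, against 29.3% of all genes. H3K4me3 without H3K27Ac was found at 3 members, NR2E1, ESRRG and NR5A2, against 6.05%. Each of these H3K4me3 calls was lost under an alternative, NR2E1 with protein-coding transcripts only, NR5A2 with the peak centre in the promoter and ESRRG with stricter peaks.

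**Figure D2:**
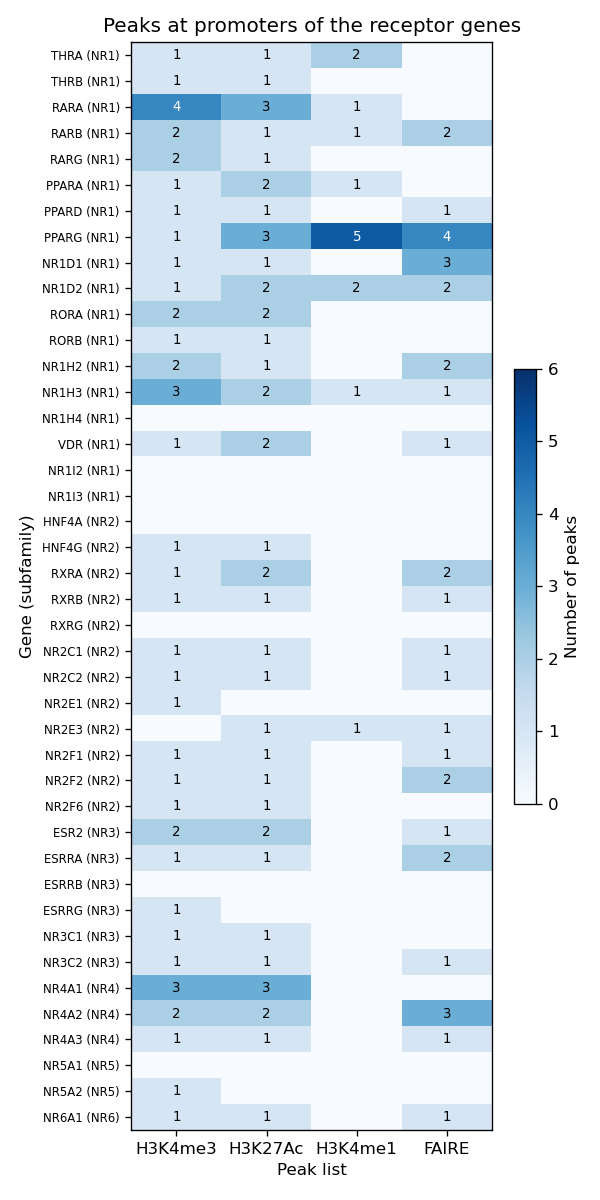
Number of peaks of each list at the promoters of the 42 receptor genes, with the subfamily in brackets and empty cells for none. RARA has 4 H3K4me3 peaks, PPARG has 5 H3K4me1 and 4 FAIRE peaks, and 7 rows are empty.

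Subfamily NR1 holds the thyroid hormone, retinoic acid, vitamin D, peroxisome proliferator, oxysterol, bile acid and xenobiotic receptors and the circadian repressors. Of its 18 genes, 15 had promoter H3K4me3 (83.3%, against 67.3% of all genes) and 15 had H3K27Ac (83.3%, against 63.5%). Promoter H3K4me1 was at 7 (38.9%), against 20.0% of all genes. The median number of start sites was 10.5 in NR1 and 5 in all genes, so more promoter sequence was searched. With the outermost start site only, the H3K4me1 shares were 11.1% and 11.9%, and the H3K4me3 shares 61.1% and 61.7%. For H3K27Ac they were 61.1% and 57.5%. The H3K4me1 share of NR1 was above that of all genes with stricter peaks (33.3% against 11.2%) and with the peak centre in the promoter (27.8% against 8.63%). It was also above with protein-coding transcripts only (33.3% against 16.6%) and at the canonical start (16.7% against 12.3%). RARA, the retinoic acid receptor alpha, had the widest promoter H3K4me3 of the subfamily, 11134 bases in 4 peaks. Its canonical start site lay 6956 bases from the nearest H3K4me3 peak and 507 bases from H3K27Ac, whereas start sites 9.1 kb and 32.2 kb downstream lay inside peaks of both. No FAIRE peak reached a RARA promoter. Thus 7 of the 10 RARA start sites were marked by H3K4me3, and the canonical one was not.

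RARB, the retinoic acid receptor beta, had 20 start sites over 813 kb, of which 11 were within 1 kb of H3K4me3. The group of starts 740 kb upstream of the canonical site had H3K27Ac (score 389), H3K4me1 (430) and FAIRE (height 86.1) but its nearest H3K4me3 peak was 140744 bases from the outermost start. The starts 599 kb upstream lay in an H3K4me3 peak of score 2142 and had none of the other lists. The canonical start lay in an H3K4me3 peak of score 323, and its nearest H3K27Ac peak was 144009 bases away. The start sites of this gene therefore carried separate combinations of peaks. The printed canonical promoter holds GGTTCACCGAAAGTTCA at chr3:25469701-25469717, beginning 53 bases before the start, a direct repeat with 5 bases between its words. Such a repeat was found in 1 of 42 member promoters and in 0.0555% of 19819 promoters of the same length, and the words were chosen with this element known. RARG, the gamma receptor of retinoic acid, had H3K4me3 at its canonical start, while its H3K27Ac peak (score 2115) lay at start sites 11.8 to 12.1 kb downstream.

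PPARG, a fatty acid receptor and regulator of adipocyte differentiation, had the longest H3K27Ac coverage of the subfamily, 42564 bases in 13 peaks of its widened bounds. Of its 31 start sites, 14 were marked by H3K4me3, all within the peak chr3:12328172-12331327 around the canonical start, where H3K27Ac also reached 3100. The nearest FAIRE peak was 5696 bases from that start. A start site 19.8 kb downstream had H3K27Ac of score 3100, H3K4me1 of 717 and FAIRE of 93.1 without H3K4me3. A further start site 116 kb downstream, whose promoter is printed as the internal start, lay in the FAIRE peak chr3:12446794-12447888 of height 175, the highest at any member promoter, with H3K27Ac of 474 and H3K4me1 of 148. Outside the canonical group, 3 PPARG start sites had H3K4me1, H3K27Ac and FAIRE, 1 had H3K4me1 and H3K27Ac, 6 had H3K4me1 alone and 7 had no peak within 1 kb. AGGTCA lay 24 bases before the canonical start.

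**Figure D3:**
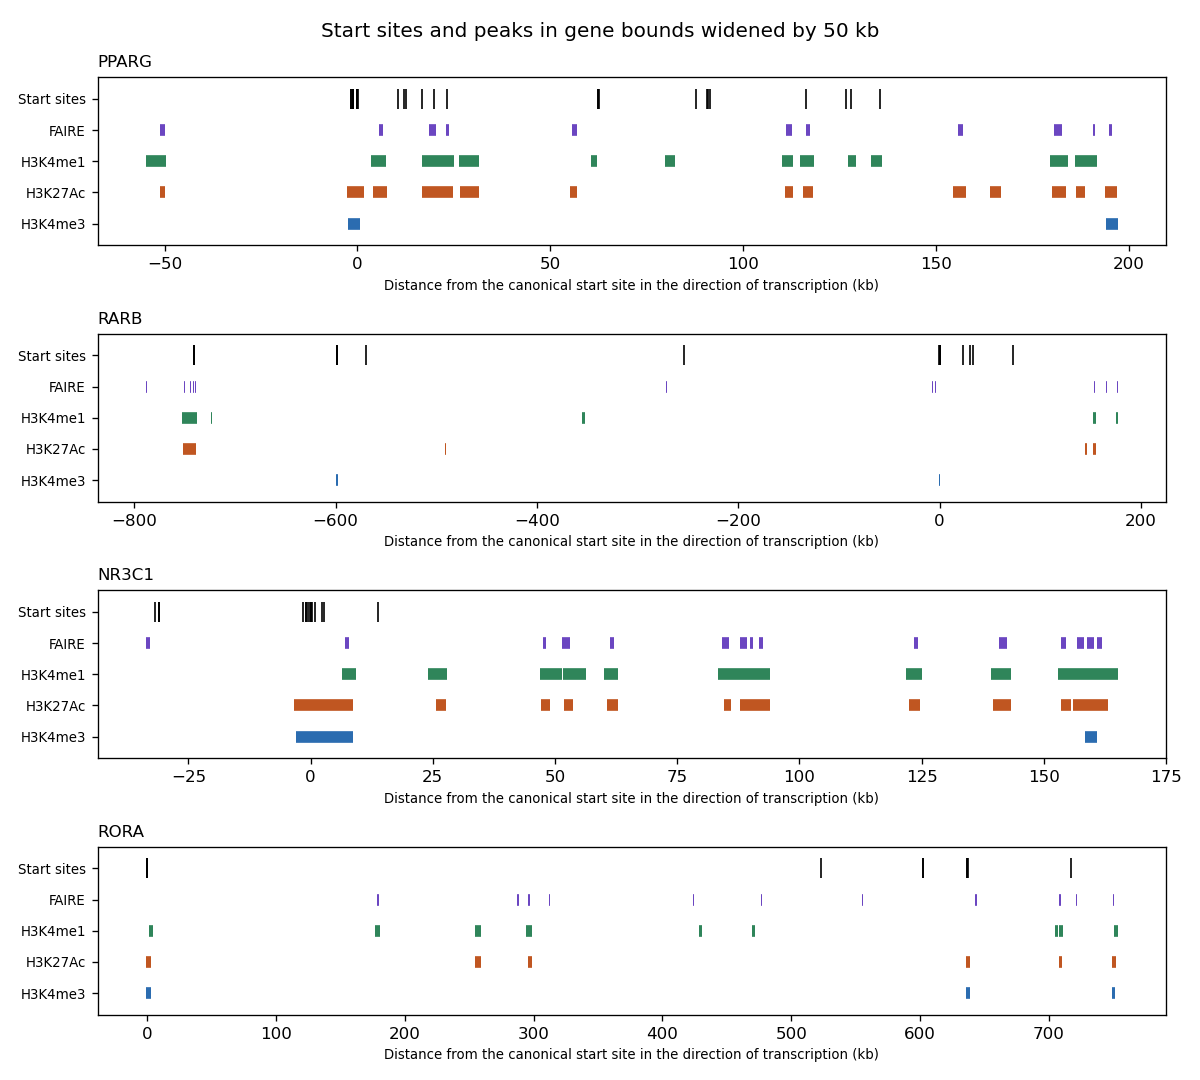
Start sites (ticks) and peaks (bars) of PPARG, RARB, NR3C1 and RORA against the distance in kb from the canonical start site in the direction of transcription. In PPARG, H3K4me3 is at the canonical start and in the 3′ flank, while H3K4me1 and H3K27Ac bars lie between them.

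PPARA had H3K4me3 of 3100 and H3K27Ac of 769 at its canonical start, and start sites 20.8 kb downstream had H3K27Ac of 228 and H3K4me1 of 135. PPARD had H3K4me3, H3K27Ac of 508 and FAIRE of 78.2 at its promoter. The 3 fatty acid receptors therefore all had H3K4me3 of 3100 at a promoter, and differed in the H3K27Ac coverage of their bounds, 12493 bases for PPARA, 25286 for PPARD and 42564 for PPARG.

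THRB, a thyroid hormone receptor, had H3K4me3 (3100) and H3K27Ac (1179) at 15 of 18 start sites and no promoter FAIRE or H3K4me1. Its bounds of 479 kb with flanks held 13 H3K27Ac, 16 H3K4me1 and 12 FAIRE peaks. Its H3K27Ac peak with the highest score, 3100, was at chr3:24185738-24189776, in an intron. THRA, the other thyroid hormone receptor, had H3K4me3, H3K27Ac (790) and H3K4me1 (74.7) at its canonical start and another H3K4me1 peak (124) at start sites further downstream. Its gene overlaps NR1D1, which encodes the circadian repressor REV-ERB alpha, so 6 H3K4me3 peaks were common to the widened bounds of both genes. NR1D1 has 1 annotated start, which had H3K4me3 and H3K27Ac of 3100 and 3 FAIRE peaks. NR1D2, its paralogue, had H3K27Ac of 3068 at a promoter whose peak also covers the start of NKIRAS1, and at a start site 19.5 kb downstream H3K27Ac of 198, H3K4me1 of 161 and FAIRE of 73.6 without H3K4me3. NR1D2 lost promoter FAIRE with 500 bp on each side, with the peak centre in the promoter and with protein-coding transcripts only.

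RORA, a receptor that activates circadian targets, had 10 of 14 start sites marked by both H3K4me3 and H3K27Ac, in groups 637 kb apart. H3K27Ac was 230 at the canonical start and 934 at the downstream group, and neither had FAIRE within 1 kb. RORB had H3K27Ac of 122. VDR, the vitamin D receptor, had H3K4me3 of 3100 and H3K27Ac of 427 at 5 start sites around the canonical one, and a start site 22.1 kb downstream had H3K27Ac of 68.2 and FAIRE of 99.5. The VDR FAIRE call was lost with 500 bp on each side and with the peak centre in the promoter. Of the oxysterol receptors, NR1H2 had H3K4me3 of 3100. NR1H3 had 74.5 at its canonical start, and its promoter peaks of 3100 covered the start of ACP2 or MADD, so these cannot be assigned to the receptor alone.

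The remaining NR1 members had no promoter peak. NR1H4, the bile acid receptor, had 1 H3K4me3 and 1 H3K27Ac peak in its widened bounds, both nearest to the start of GAS2L3. NR1I3, a xenobiotic receptor, had 3 peaks of each of these lists, none of them nearest to its own start sites. NR1I2, its relative, had a single peak, H3K4me1 of score 54.8 in an intron at chr3:119513362-119515323. These peaks either lay nearest to other genes or were near the lowest score of the list, 50.

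Subfamily NR2 holds the retinoid X receptors, the hepatocyte nuclear factors and orphan receptors including the COUP factors. Of 12 genes, 9 had H3K4me3, 9 had H3K27Ac and 7 had FAIRE at a promoter. NR2F2, the COUP-TFII factor, had both the widest promoter H3K4me3 of all 42 genes, 17429 bases in 1 peak at chr15:96867822-96885250, and the longest H3K27Ac coverage of the subfamily, 31245 bases. All 5 of its start sites lay in that H3K4me3 peak, while FAIRE, with peaks of 94.1 and 61.1, was within 1 kb of the upstream start site only and 2724 bases from the canonical one. An upstream H3K27Ac peak of 10597 bases reached into its widened bounds. NR2F1, the COUP-TFI factor, had an H3K4me3 peak of 8644 bases and an H3K27Ac peak of 8652 bases, both scored 3100, with FAIRE of 90.6. The COUP factor genes therefore had wide promoter peaks beside the median of 3060 bases for all genes with promoter H3K4me3. NR2F6, another receptor related to them, had an H3K4me3 peak of 4818 bases and no promoter FAIRE.

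The retinoid X receptors, obligate partners of many NR1 receptors, differed among themselves. RXRA had H3K4me3 of 5738 bases and H3K27Ac of 1761 at its canonical start, and H3K27Ac of 2987 with FAIRE of 51.9 at a start site 52.8 kb downstream. RXRB had all but H3K4me1, in peaks that also cover the start of SLC39A7. RXRG had no promoter peak, and its bounds held 1 H3K4me1 and 2 FAIRE peaks only. Its printed promoter holds the core word on the opposite strand, as TGACCT, 231 bases before the start. The 3 genes thus had promoter H3K4me3, H3K27Ac and FAIRE or none of the lists, and none had promoter H3K4me1.

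NR2E3, a photoreceptor regulator, was the only member with H3K27Ac but no H3K4me3 at a promoter. Its upstream start site had H3K27Ac of 1948, H3K4me1 of 243 and FAIRE of 88.2, and no H3K4me3 peak lay anywhere in its widened bounds. All 3 calls were lost where the peak centre had to lie in the promoter or only the canonical start was used, and the FAIRE call also with 500 bp on each side. Its bounds held 6 H3K27Ac peaks and 18872 covered bases. NR2E1, a regulator of neural stem cells, showed the reverse: an H3K4me3 peak of score 341 lay at a start site 10.1 kb downstream of the canonical one, with no H3K27Ac at a promoter. NR2C1 and NR2C2, the testicular orphan receptors, had H3K4me3, H3K27Ac and a FAIRE call that was lost with stricter peaks. HNF4G had H3K4me3 and H3K27Ac (650) at a start group 132 kb upstream of the canonical start, which itself had none. HNF4A, a regulator of liver and gut genes, had no promoter peak, and in its bounds 1 FAIRE peak of 48.8 was nearest to its own start sites.

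Subfamily NR3 was represented by estrogen receptor beta, the estrogen-related receptors and the glucocorticoid and mineralocorticoid receptors. NR3C1, the glucocorticoid receptor, had both the widest promoter H3K4me3 (11547 bases) and the longest H3K27Ac coverage (42952 bases) of the subfamily, and this coverage was the longest of all 42 genes. It ranked 346 of 20098 genes by length, and by the share of the bounds covered it stood at percentile 87.4. Its promoter peak chr5:142774592-142786138 held 11 of 16 start sites, and 4 start sites 31 to 31.8 kb upstream and 1 start site 13.7 kb downstream lay outside it. No FAIRE peak lay within 1 kb of a start site, but 1 lay 1059 bases from the outermost start, and with 2 kb on each side NR3C1 had promoter FAIRE. The H3K4me3 promoter peak itself met a FAIRE peak, and the bounds held 16 FAIRE peaks, more than those of any other member. Of its 10 H3K4me1 peaks, 7 met H3K27Ac and FAIRE without H3K4me3. The highest was the intronic peak chr5:142689177-142694970, of score 837.

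NR3C2, the mineralocorticoid receptor, had H3K4me3 and H3K27Ac of 3100 and FAIRE of 97 at its promoter. ESRRA, an estrogen-related receptor active in energy metabolism, had H3K27Ac of 2887 at its promoter and the densest H3K27Ac of the members, 10.8 peaks per 100 kb against a median of 2.11 for all genes. Its bounds hold other genes with start sites of their own, and its promoter peaks also cover the start of CATSPERZ. The alternative promoter printed above holds GGGTCAAAGGTCA at chr11:64073623-64073635, a direct repeat with 1 base between its words, beginning 76 bases before the start and inside H3K4me3 and H3K27Ac peaks. Such a repeat was found in 0.177% of canonical promoters of the same length and in 0 of 42 of the members' canonical ones, the printed start not being canonical.

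ESR2, which encodes estrogen receptor beta, had H3K4me3 of 2631 at its canonical start with H3K27Ac of 54.4, and H3K4me3 of 3100 with H3K27Ac of 1743 and FAIRE of 99 at start sites 43.7 kb upstream. The ESR2 FAIRE call was lost with 500 bp on each side. AGGTCA lay 128 bases before the canonical start. ESRRG had H3K4me3 of 97.4 at 7 of 23 start sites and no promoter H3K27Ac, although 7 H3K27Ac peaks lay in its bounds. By the highest promoter peak of each gene, the H3K4me3 score of ESRRG was the lowest of the 34 marked members, although the peak at the canonical start of NR1H3 had 74.5. The ESRRG H3K27Ac peak with the highest score nearest to its own start sites, 2349, was intronic. ESRRB had no promoter peak, and its bounds held 1 H3K4me3 peak of 584 and 1 FAIRE peak of 48.

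Subfamily NR4 holds the immediate early receptors, whose genes are induced by many stimuli. All 3 of its genes had H3K4me3 and H3K27Ac at a promoter, against 67.3% and 63.5% of all genes. NR4A1 had the widest promoter H3K4me3, 7779 bases in 3 peaks, the longest H3K27Ac coverage, 13453 bases, and no promoter FAIRE. Its H3K27Ac scores were 224, 117 and 523 at the 3 marked groups of starts, which held 9 of its 19 start sites. NR4A2 had H3K27Ac of 3177 and 1848 and 3 FAIRE peaks, and NR4A3 had H3K4me3 of 6955 bases with FAIRE of 45.4. In this subfamily 1 gene, NR4A3, had an H3K4me1 peak in its widened bounds.

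Subfamily NR5 holds regulators of steroid synthesis and of liver and gut genes. NR5A2 had H3K4me3 of 2067 within 617 bases of its canonical start, no H3K27Ac at a promoter, and 1 H3K27Ac peak of 1259 bases in its bounds. NR5A1 had no promoter peak, and its H3K27Ac coverage of 2449 bases was the longest of this subfamily. That coverage came from 1 peak nearest to a start of NR6A1, whose widened bounds overlap those of NR5A1. NR6A1, the germ cell nuclear factor and only gene of subfamily NR6, had H3K4me3 of 3991 bases, H3K27Ac of 827 and FAIRE of 62.9 at its promoter, and 27752 bases of H3K27Ac in its bounds.

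Counted over genes widened by 50 kb, 38 members had H3K4me3 (85.4% of all genes), 39 had H3K27Ac (86.7%), 30 had H3K4me1 (62.7%) and 40 had FAIRE (85.1%). No member was without a peak of any list in these bounds, but the share of all genes without one is not given here. Counting a peak shared by windows once, the bounds held 122 H3K4me3, 203 H3K27Ac, 118 H3K4me1 and 221 FAIRE peaks. Of the H3K4me1 peaks, 69 were centred in an intron of the member and 6 in an exon. Of the H3K27Ac peaks, 109 had a start site of a member as the nearest protein-coding start, so the others lay closer to neighbouring genes.

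The median H3K27Ac coverage was 16372 bases for members and 9452 for all genes, but the members' bounds were also longer, 154 kb against 127 kb. As a share of the bounds the medians were 7.88% and 6.17%. For H3K4me1 the medians were 5890 and 3617 bases, 2.75% and 2.44% of the bounds, and 0.808 and 0.81 peaks per 100 kb. Members were thus above all genes in the bases covered by either list, and by less once length was taken into account. By subfamily the median coverage ran from 1854 bases in NR5 to 22097 in NR3, or 27752 for the single NR6 gene. The order was another by share of the bounds, with medians of 10.7% in NR2, 9.84% in NR4, 8.73% in NR1, 4.75% in NR3 and 1.22% in NR5.

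**Figure D4:**
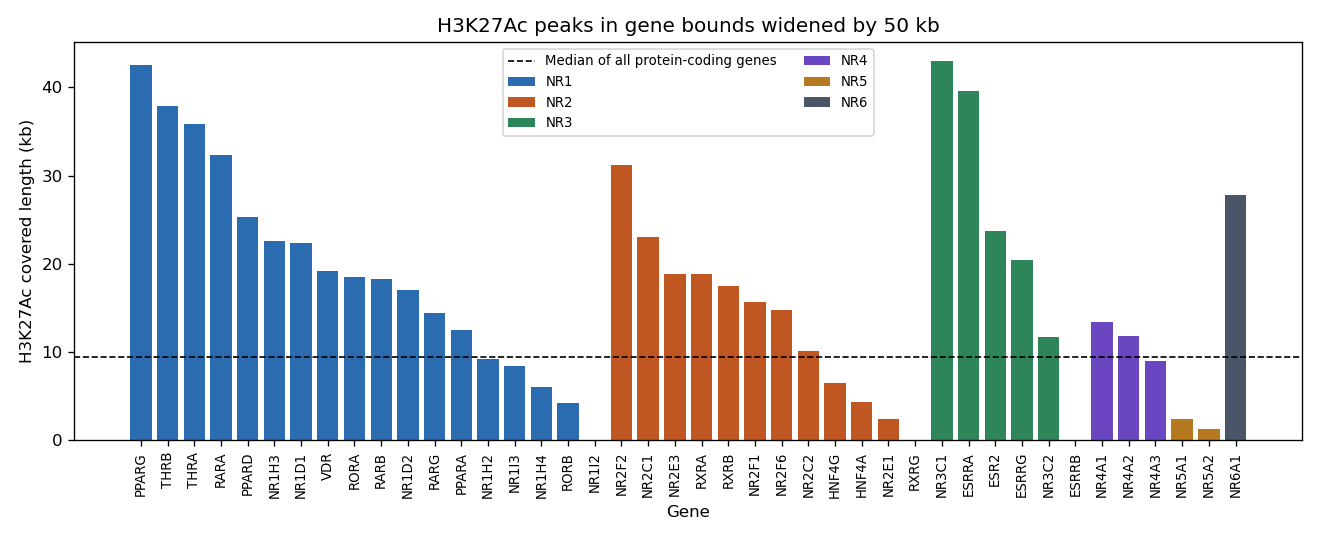
H3K27Ac covered length (kb) in the bounds of each receptor gene widened by 50 kb, by subfamily, with the median of all protein-coding genes as a dashed line. NR3C1 and PPARG have the tallest bars, and RXRG, ESRRB and NR1I2 are at 0.

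The 118 H3K4me1 peaks were split by the other lists they met. Those with H3K27Ac and FAIRE but no H3K4me3 were 49.2% of them and 50.2% of the whole list. Peaks that met none of the other lists were 20.3% of them and 13.6% of the list, 24 peaks, of which 6 lay in the bounds of THRB and 4 in those of PPARG. Those that met FAIRE alone were fewer, 5.08% against 11.2%. The 6 THRB peaks of the former class had scores from 54 to 82.2. Among the 70 H3K4me1 peaks with a score of at least 100, those that met no other list were 4.29%, against 5.16% of the list, so the higher share was not seen there. Those with H3K27Ac and FAIRE but no H3K4me3 were 71.4% there, against 66.0%, an order opposite to 49.2% against 50.2%. FAIRE peaks without any histone peak were 19.5% in the bounds and 19.6% in the list.

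**Figure D5:**
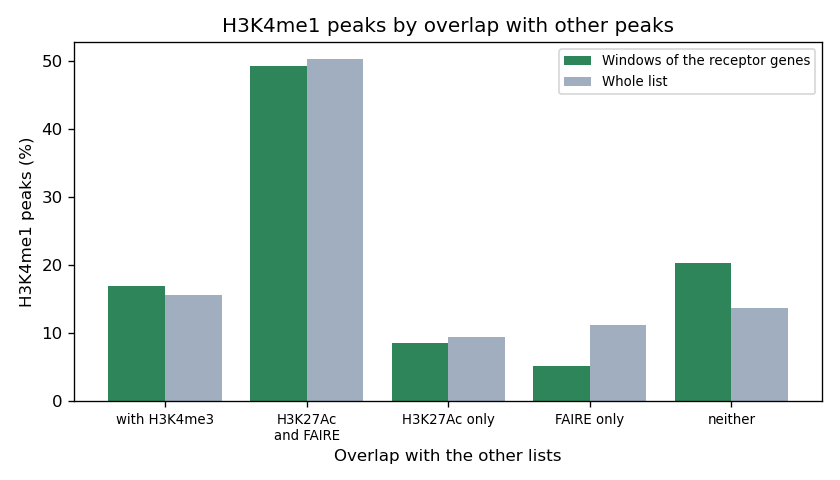
H3K4me1 peaks (%) by overlap with the other lists, for the bounds of the receptor genes and for the whole list. The bars for H3K27Ac with FAIRE are 49.2% and 50.2%, and those for neither are 20.3% and 13.6%.

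Across the 417 start sites of the members, 230 had H3K4me3 within 1 kb (55.2%, against 51.3% of the start sites of all genes). H3K27Ac was at 188 (45.1% against 50.4%) and H3K4me1 at 49 (11.8% against 11.9%). FAIRE was at 70 (16.8%), a lower share than the 39562 of 146299 start sites of all genes, and the widest gap of the 4 lists. By start site the members were thus below all genes for H3K27Ac and FAIRE. Counted by gene the order was the opposite, with 32 of 42 against 63.5% and 21 of 42 against 39.3%. Of the members, 30 had both start sites with and start sites without H3K4me3 (71.4%, against 47.5% of all genes). Of genes with more than 1 start site the shares were 73.2% and 56.7%. The members had a median of 8 start sites and all genes 5, and these shares were not matched for start site number. They therefore do not show mixed marking to be a trait of the receptor genes. In RARA, HNF4G and NR2E1, H3K4me3 lay away from the canonical start only.

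In the 300-base canonical promoters, AGGTCA on either strand was found in 5 of 42 members (ESR2, NR5A2, PPARG, RARA and RXRG) and in 11.2% of all promoters of that length. The member promoters held no direct repeat with 0 to 5 bases between, inverted repeat with 0 to 3 or everted repeat with 0 to 8. They also held no palindrome of AGAACA with 3 bases between. Taken singly, each of these repeats was in at most 0.0353% of all promoters of that length, and the palindrome in 0. Their absence from 42 promoters is therefore not a trait of the members. With the related words, 1 member, RARB, held a direct repeat. In the FAIRE peaks of the widened bounds AGGTCA was found in 46.6%, against 48.5% of the list, and in the H3K27Ac peaks in 88.2% against 82.7%, where the median peak was 2873 bases against 2664. A match is a description of letters, and binding was not measured.

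The genes that work with the receptors were counted by the same rule. All 19 coregulators had promoter H3K4me3 and 18 had H3K27Ac, the exception being NCOA3, a p160 coactivator. Of 18 genes that make, carry or break down ligands, 12 had H3K4me3 and 9 had H3K27Ac, beside 67.3% and 63.5% of all genes. Of the genes that break down retinoic acid, CYP26B1 had H3K4me3 of 3100 and H3K27Ac of 1048, CYP26A1 had H3K4me3 of 737 without H3K27Ac, and CYP26C1 had neither. Among the others CYP24A1, which inactivates vitamin D, had H3K4me3 of 1180 without H3K27Ac. ALDH1A2, a retinoic acid synthase, had H3K27Ac of 3100 and H3K4me1 of 494 without H3K4me3. All 15 classical targets had H3K4me3 and 14 had H3K27Ac, ABCG1, an oxysterol receptor target, being the exception.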

How the data were processed

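The authors aligned reads of MDAMB231 FAIRE and histone ChIP libraries with BWA, combined the samples of each assay, and used MACS, with input as control, for histone marks and FindPeaks for FAIRE. The submitters' processing notes also name TopHat and HOMER and the build hg19. The score of a histone peak, as the authors deposited it, is MACS's log-transformed p-value. The FAIRE column holds a signal value deposited by the authors, read as peak height from its range. Starts were taken as 0-based. Read depth was not used here.

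Genes and start sites came from GENCODE release 44 mapped to GRCh37. Peaks sharing 1 base or more with a promoter or gene were found with Python scripts (numpy 2.4.6, pandas 2.3.3) that were tested on simulated data against bedtools 2.31.1. Members and lists were chosen with earlier results of these data known. Full values were planned, by subfamily, for the member with the widest promoter H3K4me3, the member with the longest H3K27Ac coverage, members with H3K4me3 or H3K27Ac but not both at promoters, and members without promoter peaks. Other members named, and the sequences printed, were chosen after their values were seen. Alternatives were promoter and flank widths, transcript choice, peak centres, stricter peaks and nearest genes. DNA-binding domain residues were not analysed here.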

Additional observations from a re-analysis of the deposited data

How the results depend on the processing

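No paired analysis was possible because the samples of an assay were merged into 1 list, and leaving out a replicate was not possible for the same reason. Counts were taken as unmoved within 1.5 times the reported value, and the median length only where equal. By that measure 35 values under the alternatives first listed did not move and 16 did, and of those chosen after seeing the data 3 did not move and 4 did. With the outermost start site only, 3 members had promoter H3K4me1 and 16 were without promoter H3K4me3. There H3K4me3 was at 61.9% of members and 61.7% of all genes, so the members' higher share was gone, and H3K4me1 at 7.14% and 11.9%. With the peak centre in the promoter, 5 had H3K4me1, 11.9% against 8.63% of all genes, an order opposite to 19.0% against 20.0%. The order was also turned with stricter peaks (16.7% against 11.2%) and with 500 bp on each side (19.0% against 17.8%), and nearly level with protein-coding transcripts only (16.7% against 16.6%). With the canonical start only, chosen after seeing the data, 3 had H3K4me1 (7.14% against 12.3%) and 12 had FAIRE (28.6% against 31.4%).

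With bounds widened by 10 kb, 73 H3K4me3, 123 H3K27Ac and 142 FAIRE peaks were counted and median H3K27Ac coverage was 8946 bases. With 100 kb, 187 H3K4me3 peaks were counted and the coverage was 24944 bases. With stricter peaks (p at or under 1e-10, or FAIRE height at or above its median), 70 H3K4me1 and 135 FAIRE peaks were left and the coverage was 15376 bases. Where the nearest start had to be a member's, 59 H3K4me3, 109 H3K27Ac and 135 FAIRE peaks were left. These alternatives search more or fewer bases or keep fewer peaks by construction.

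AGGTCA was found in 28 members with 1 kb on each side, 66.7% against 67.0% of all promoters. With 4 words, chosen after seeing the data and with the RARB element in view, 15 members held a word, 35.7% against 34.2% of all promoters, and 1 a direct repeat. The lists hold no read counts, so the effect of depth was not tested.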
